A study of Mus musculus with 6 samples.

Results

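The genes described here are 10 mouse genes whose proteins carry an HMG box: Tox and its relatives Tox2, Tox3 and Tox4, the T cell factors Tcf7 and Lef1, the Sox factors Sox4 and Sox13, and the chromatin proteins Hmgb1 and Hmgb2. They were found by gene symbol in each of 6 RNA sequencing tables. All 10 were present once among 22298 listed genes, and all 10 were among the 13934 genes with enough counts to be tested. The comparison asks whether transcripts of other HMG-box genes were higher where Tox was deleted.

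Thymocytes of C57BL/6 mice with loxP-flanked Tox alleles (Toxf/f, the control group, 3 libraries) were set against thymocytes of Toxf/f mice that also carried Cd4Cre, a transgene in which Cre recombinase is driven by Cd4 regulatory sequences (Toxf/fCd4Cre, 3 libraries). No treatment was given, and in both groups the age was 4 weeks for replicate 1 and 3 weeks for the other two replicates. Both groups share the floxed alleles, and no library came from mice with Cre and an unfloxed Tox gene, so the loss of Tox and the presence of Cre cannot be told apart. Separate mice are not named for the replicates, so p-values measure the spread between these libraries.

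The HMG box is a DNA-binding fold that sits in the minor groove and bends DNA. Tcf/Lef and Sox proteins use it to read short sequence motifs, whereas Hmgb proteins recognise DNA shape more than sequence, and the box of the Tox proteins is thought to do the same. In the thymus, Tcf7 (which encodes TCF-1) starts the T lineage program downstream of Notch signals, Lef1 overlaps with it in function, and Tox is needed for the CD4 lineage.

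Library totals ranged from 14550593 to 16099023 estimated counts. The titles name double-negative thymocytes and the protocol a sort of DN2 cells. The 8 DN2 markers (such as Kit and Il2ra) summed to 173 to 203 CPM (counts scaled to library size) in controls and to 177 to 194 CPM in Cd4Cre, whereas the 10 markers of the later double-positive stage (such as Cd4 and Cd8a) summed to 10569 to 10869 CPM and 11364 to 12042 CPM. Markers of the labelled stage and of a later one were thus both present. Rag1, which is not specific to the later stage, made up 4932 CPM of that list in controls on average, and sums of different genes are not on 1 scale. Cd4 and Cd8a averaged 918 and 1712 CPM in controls, against 20.4 CPM for Kit and 96.4 CPM for Il2ra. Markers of cells other than thymocytes were also present, and the 9 of cortical epithelium summed to 3768 to 4014 CPM in controls. Which population was sequenced could not be settled from the labels. Control replicate 2 held 3740 counts of 4 Y-linked genes and each other library 2 to 5, so results are also given without it where a call depends on it.

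Tox itself had the largest log2 fold change of the 10. Its level was 109, 99.2 and 103 CPM in the control libraries (replicates 1 to 3). In the Cd4Cre libraries it was 12.5, 15.1 and 10.2 CPM. The groups were far apart, and transcript remained in every Cd4Cre library (147 to 242 estimated counts). The log2 fold change, Cd4Cre minus control, was -3.03 (SE 0.12, 95% interval -3.29 to -2.78, edgeR quasi-likelihood adjusted p = 3.55e-08) and the level was 12.2% of that in controls. Reads from exons that Cre does not remove are part of these counts. In bulk RNA, fewer cells of a type that transcribes a gene and less RNA per cell cannot be told apart.

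None of the other 9 genes rose. Tox and Lef1 fell, which is 2 of 10, against a background of 4.11% of the 13934 tested genes past the threshold of adjusted p 0.05 in either direction (1.15% higher and 2.96% lower). With the GC and length correction described below, 856 genes passed, 369 higher and 487 lower, so the share of higher genes among the calls moved with that scaling. The 572 genes behind the 4.11% (160 higher and 412 lower) became 309 and 298 without control replicate 1 or 2, and 330 and 1269 (475 higher and 794 lower) without Cd4Cre replicate 1 or 3. Tox is the deleted gene, so 1 of 9 other genes, Lef1, was called. None of the remaining 8 had an unadjusted p under 0.05, where 2276 of the 13934 tested genes did. DESeq2 and limma called the same 2 genes. The groups did not overlap in CPM for Tox and Lef1 alone, 2 of 10, where 22.0% of all tested genes had no overlap between the groups.

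**Figure D1:**
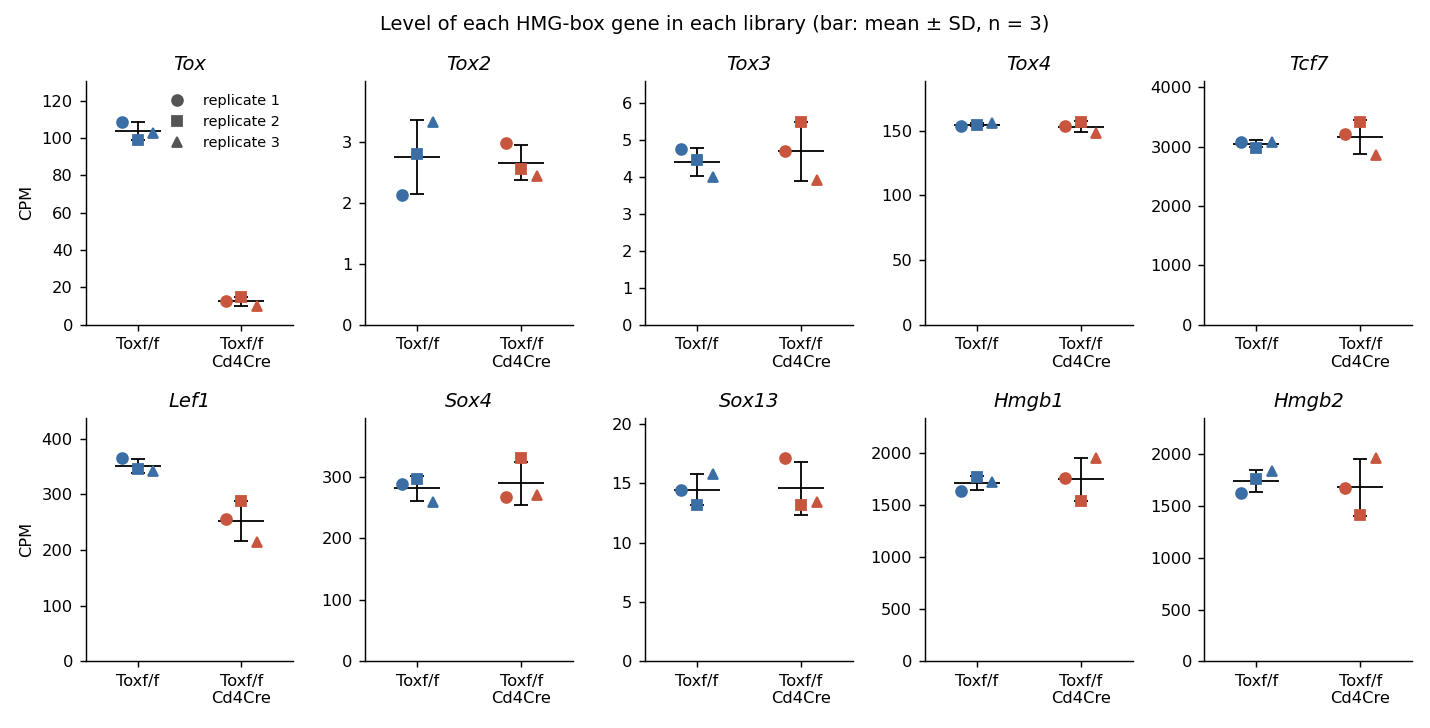
Level of each of the 10 genes in CPM (vertical axis from 0, own scale per panel) in the 3 Toxf/f libraries (blue) and the 3 Toxf/fCd4Cre libraries (red), with symbols for the replicate number and black bars for mean ± SD. Tox lies near 104 CPM in controls and 12.6 CPM in Cd4Cre, Lef1 lies lower in each Cd4Cre library than in any control, and the groups of the other 8 genes overlap.

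Levels can be compared between genes only per length, for which the deposited FPKM (fragments scaled to transcript length and library size) were used. In controls the order by mean FPKM was Hmgb1 (1583 ± 30.6, SD, n = 3), Tcf7 (1284 ± 22.5), Hmgb2 (769.8 ± 14.96), Lef1 (128 ± 6.34), Sox4 (58.7 ± 4.61), Tox4 (29.0 ± 0.0954), Tox (26.3 ± 1.35), Sox13 (4.21 ± 0.308), Tox3 (2.23 ± 0.518) and Tox2 (1.36 ± 0.422). No neighbours in this order overlapped between control libraries. In Cd4Cre, Tox was at 3.17 ± 0.62 FPKM, between Sox13 (4.26 ± 0.602) and Tox3 (2.12 ± 0.597), and its libraries overlapped with those of both. Tox3 and Tox2 met at 1.45 FPKM. Hmgb1 and Tcf7 also overlapped there (1353 to 1768 and 1184 to 1444 FPKM), while the order of the 6 highest genes was that of the controls.

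Among the Tox relatives, Tox4 encodes a broadly expressed protein found in a complex with protein phosphatase 1. Tox4 stood at 154, 154 and 156 CPM in Toxf/f and at 154, 157 and 148 CPM in Cd4Cre. The values of both groups lay within a few percent of each other, and its log2 fold change was -0.02 (SE 0.06, adjusted p = 0.94, edgeR quasi-likelihood). The 95% interval ran from -10.3% to 9.18%, the lowest upper limit among the genes that did not pass. Of the 10 genes, only Tox4 had deposited counts that were not whole numbers, so its counts are in part estimates.

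Tox2, which acts in NK cell and follicular helper T cell differentiation, was near the detection limit. Control libraries held 2.12, 2.80 and 3.33 CPM and Cd4Cre libraries 2.97, 2.56 and 2.44 CPM (33 to 50 estimated counts per library). These values overlapped and gave a log2 fold change of -0.05 with a 95% interval of -0.56 to 0.47. Tox3, known mainly from neurons and breast epithelium, was measured at 4.76, 4.44 and 3.99 CPM in Toxf/f and at 4.68, 5.48 and 3.90 CPM in Cd4Cre libraries. Its log2 fold change was 0.10 with a 95% interval of -0.31 to 0.50. On the FPKM scale Tox3 had the opposite sign (-0.09 in log2(FPKM + 0.1)), and its FPKM per CPM differed up to 1.57-fold between libraries, against 1.02-fold for Tox. At this depth a rise of up to 38.05% in Tox2 or 41.6% in Tox3 lies within the intervals.

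Because FPKM are per length, the family can be added up. Tox, Tox2, Tox3 and Tox4 together made 60.5, 57.5 and 58.5 FPKM in the controls and 36.0, 36.4 and 32.3 FPKM in Cd4Cre. The family total was lower in every Cd4Cre library than in any control, with a mean difference of -23.9 FPKM. That of Tox alone was -23.1 FPKM, and the sum of Tox2, Tox3 and Tox4 was 32.6 ± 0.218 FPKM in controls and 31.7 ± 1.73 FPKM in Cd4Cre (n = 3). A two-sided exact permutation test gave p = 0.1 for the family total, the smallest that 3 against 3 libraries allow, and p = 0.8 for the sum without Tox. Over the 16 sums, shares and ratios tested this way, these p-values were 0.18 and 1 after Benjamini-Hochberg adjustment. The share of Tox in the family total was 43.8% to 45.9% in controls and 7.89% to 10.4% in Cd4Cre, and that of Tox4 48.0% to 50.4% and 80.0% to 84.6%.

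**Figure D2:**
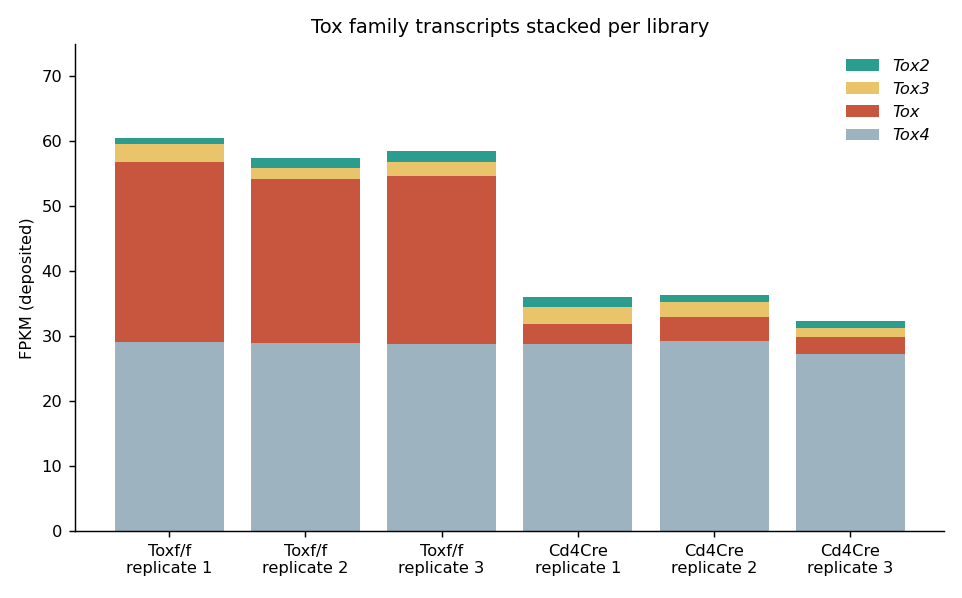
Deposited FPKM of the 4 Tox family genes, stacked per library (vertical axis from 0). The Tox segment is near 26.3 FPKM in the Toxf/f libraries and 3.17 FPKM in the Cd4Cre libraries, the Tox4 segment is near 29.0 and 28.5 FPKM, and Tox3 and Tox2 are thin segments on top.

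Tcf7 and Lef1 encode partner factors that bind the same motif and recruit beta-catenin or Groucho-type (Tle) corepressors. Lef1 fell in the Cd4Cre libraries. The control libraries held 365, 347 and 342 CPM and the Cd4Cre libraries 256, 288 and 215 CPM. Each Cd4Cre library lay below each control, with replicate 3 the lowest. The log2 fold change was -0.47 (SE 0.10, 95% interval -0.69 to -0.26, edgeR quasi-likelihood adjusted p = 0.017), or 72.0% of the control level.

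The Lef1 call depended on which libraries were included. Without control replicate 1, 2 or 3 the adjusted p (edgeR) was 0.094, 0.068 and 0.052, without Cd4Cre replicate 1 it was 0.078, and in the 3-week libraries alone 0.32. In log2(FPKM + 0.1) without a filter it was 0.057 (limma). Leaving out Cd4Cre replicate 2 or 3 gave 0.0016 and 0.0092. The log2 fold change stayed between -0.58 and -0.37 in all 19 alternatives, of which 13 were past the threshold.

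Tcf7 levels in controls were 3072, 2976 and 3086 CPM. Those in Cd4Cre were 3207, 3421 and 2864 CPM. Cd4Cre replicates 1 and 2 were above and Cd4Cre replicate 3 below all controls, so the groups overlapped. The log2 fold change was 0.06 (SE 0.08, adjusted p = 0.77, edgeR quasi-likelihood), with a 95% interval from -7.44% to 16.7%.

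The ratio of the 2 genes within a library does not depend on scaling between libraries. It was chosen after the values were seen. There were 0.119, 0.116 and 0.111 Lef1 counts per Tcf7 count in controls and 0.0797, 0.0841 and 0.0751 in Cd4Cre. The groups were apart by more than the spread within them, with a difference of -31.0% between the mean ratios. The exact permutation test, two-sided, gave p = 0.1, the smallest possible here (0.18 adjusted over the 16 quantities). Lef1 made up 9.03% ± 0.358 of the pair's FPKM in controls and 6.42% ± 0.218 in Cd4Cre. The summed FPKM of the pair was 1412 ± 26.2 in controls and 1417 ± 144 in Cd4Cre (n = 3, exact permutation p = 0.9). The sign of that difference turned without control replicate 2 (-7.08 FPKM), Cd4Cre replicate 1 (-7.17) or Cd4Cre replicate 2 (-59.4), and without Cd4Cre replicate 3 it was 83.1 FPKM.

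**Figure D3:**
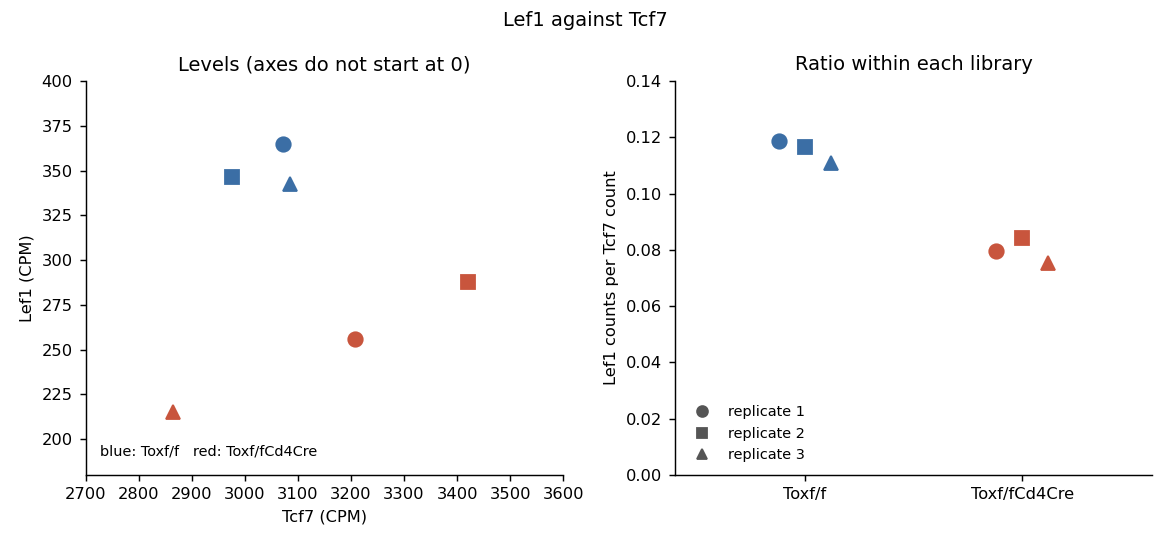
Left, Lef1 against Tcf7 in CPM for each library (axes do not start at 0). Right, Lef1 counts per Tcf7 count in each library, from 0, with symbols for replicates: the 3 Toxf/f libraries (blue) lie between 0.111 and 0.119 and the 3 Cd4Cre libraries (red) between 0.0751 and 0.0841.

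Markers of other cells moved with Tox and Lef1. The 8 markers of mature single-positive thymocytes summed to 867 to 939 CPM in controls and 751 to 775 CPM in Cd4Cre, and Gimap4, Ccr7, Klf2 and S1pr1 fell while 4 did not pass. The 6 gamma-delta T cell markers in the table summed to 280 to 319 and 521 to 565 CPM. Of these, Trdc, Trgc1, Trgc2, Trgc4 and Cd163l1 rose, and the 1 that did not pass was Sox13. The 8 B cell markers summed to 90.7 to 104 and 44.7 to 69.1 CPM, of which 4 fell. The 9 markers of cortical epithelium summed to 3768 to 4014 and 4584 to 4977 CPM, of which 5 rose. Sums were also apart for markers of macrophages (772 to 825 and 573 to 613 CPM, where Lyz2 fell and 8 of 9 did not pass). Lyz2 alone went from 338 to 134 CPM on average. Of the 9 macrophage markers, 5 had positive and 4 negative log2 fold changes (median 0.04). Plasma cell markers summed to 310 to 320 and 273 to 288 CPM. Jchain, Igkc and Irf4 fell, Sdc1 rose and 3 of 7 did not pass. Igkc alone went from 63.1 to 8.12 CPM on average. Of the 7 log2 fold changes, 4 were positive and 3 negative (median 0.16). Those of NK and innate lymphoid cells summed to 144 to 152 and 160 to 185 CPM. Of the 8 tested, Klrb1c and Klrk1 rose and 6 did not pass, with 4 positive and 4 negative log2 fold changes (median -0.10). Dendritic cell markers summed to 1454 to 1619 and 1258 to 1426 CPM. None of these 9 passed edgeR, DESeq2 or limma, and 4 had an unadjusted p under 0.05. The 10 double-positive markers, whose sums are given above, were also apart, with 10569 to 10869 CPM in controls and 11364 to 12042 CPM in Cd4Cre. Of these, Aqp11 rose and 9 did not pass, with 8 positive and 2 negative log2 fold changes. Over all 13934 tested genes, 4.11% passed and 2276 genes had an unadjusted p under 0.05. No marker in these lists was at 0 counts in all libraries. The sums of DN2, DN3, medullary epithelium, fibroblast and endothelium, and erythroid markers overlapped between the groups. Some of these lists still held genes called by edgeR. In the DN3 list, Notch3 and Ptcra were called higher in Cd4Cre and 6 markers were not called, while all 8 log2 fold changes were positive. Among the 8 medullary markers, Krt5 was called higher, Ccl21a, Fezf2 and Krt14 lower, and 4 were not called. The DN2, fibroblast and endothelium, and erythroid lists held no edgeR call. Lef1 is itself expressed in several thymocyte stages, and the part of these differences in the Tox and Lef1 results was not tested.

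The promoter of Lef1 is shown as the regulatory sequence of the 1 gene besides Tox that was called. It covers the 250 bases before the outermost RefSeq start of the gene (GRCm38.p6, chr3:131110047-131110296, plus strand), 5′ to 3′, in lower case throughout because no searched motif occurs in it.

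Lef1 promoter: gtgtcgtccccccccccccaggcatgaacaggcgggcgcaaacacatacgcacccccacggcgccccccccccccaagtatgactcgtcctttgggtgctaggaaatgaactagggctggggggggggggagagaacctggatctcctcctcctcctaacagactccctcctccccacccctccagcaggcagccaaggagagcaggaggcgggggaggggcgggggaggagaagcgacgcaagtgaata

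Searched on both strands were the Tcf/Lef motifs CTTTGAT and CTTTGTT and the Sox motif ATTGTT, none of which contains another. At least 1 Tcf/Lef motif was present in 8.06% of all 32851 RefSeq promoter windows of this length, and the Sox motif in 9.42%. Neither was found in any of the 4 Lef1 windows. Of the other members with windows in the table (Tox2, Tox3, Tox4, Tcf7, Sox4, Sox13, Hmgb1 and Hmgb2), only Tox2 had a match, with 1 CTTTGAT shared by 2 overlapping windows of its 5 and 1 ATTGTT in another window. No match says only that these letters are not in this window.

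Partners and targets of Tcf/Lef proteins were read from lists that, like the other lists here, were fixed with earlier results of these data known. Of 24 tested Wnt pathway components and Tcf/Lef partners, including beta-catenin (Ctnnb1) and the Tle corepressors, none passed the edgeR test, DESeq2 or limma, and 0 had an unadjusted p under 0.05. Their median log2 fold change was -0.02, against 0.01 over all tested genes. Of 14 tested Wnt and Tcf/Lef target genes, 2 rose, 1 fell and 11 did not pass, with a median of -0.14. Over all 13934 tested genes, 4.11% passed. An unadjusted p under 0.05 was found for 5 of the 14 and for 2276 of all tested genes. DESeq2 called 4 of the 14, adding Id2, an inhibitor of E proteins (48.9 ± 5.73 and 36.6 ± 4.67 CPM, edgeR adjusted p = 0.066). Ccnd1, which encodes cyclin D1, fell by 0.79 on the log2 scale, from 21.4 ± 0.833 to 12.4 ± 0.673 CPM (n = 3). Rnf43, a ubiquitin ligase that removes Wnt receptors, rose from 7.63 ± 0.903 to 12.1 ± 1.18 CPM (0.67), and Myc, a regulator of cell growth, from 75.3 ± 1.89 to 94.1 ± 3.36 CPM (0.32). Axin2 was lower without overlap between the groups (29.9 ± 1.92 and 25.1 ± 1.83 CPM, edgeR adjusted p = 0.20). Members of this list thus changed in both directions, with 5 positive and 9 negative log2 fold changes.

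Sox4 acts downstream of several thymic signals and in gamma-delta T cell development. It stood at 287, 296 and 258 CPM in Toxf/f and at 267, 329 and 271 CPM in Cd4Cre. The groups overlapped, with Cd4Cre replicate 2 above all controls, and the log2 fold change was 0.04 (SE 0.09, adjusted p = 0.87, edgeR quasi-likelihood), with a 95% interval from -10.6% to 18.7%. Sox13, a factor of gamma-delta cells that make interleukin 17, had 14.4, 13.2 and 15.8 CPM in Toxf/f and 17.1, 13.2 and 13.4 CPM in Cd4Cre libraries. Only Cd4Cre replicate 1 lay above the controls. Its log2 fold change was 0.01 (SE 0.13, adjusted p = 0.98), with a 95% interval from -17.4% to 22.9%.

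Of 10 tested regulators linked to Sox4 and Sox13 in gamma-delta cells, 2 rose, 2 fell and 6 did not pass (median log2 fold change 0.19). Over all tested genes, 4.11% passed. Blk, a Src family kinase, rose from 5.51 ± 0.107 to 11.4 ± 1.87 CPM and Maf from 17.8 ± 1.10 to 29.9 ± 4.09 CPM (n = 3). Ccr6, a chemokine receptor of interleukin-17-producing cells, fell from 4.81 ± 0.945 to 0.868 ± 0.167 CPM, and Rora from 12.4 ± 0.804 to 8.15 ± 1.43 CPM. The summed gamma-delta markers given above were higher in every Cd4Cre library than in any control, while the groups overlapped for Sox13. The part of gamma-delta cells in these calls was not tested.

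Hmgb1 and Hmgb2 encode abundant proteins that bend DNA and assist the RAG recombinase. Hmgb1 stood at 1641, 1773 and 1722 CPM in Toxf/f and at 1764, 1539 and 1951 CPM in Cd4Cre. Hmgb2, which is high in dividing cells, stood at 1624, 1761 and 1837 CPM and at 1680, 1410 and 1962 CPM. For both genes Cd4Cre replicate 2 was the lowest and Cd4Cre replicate 3 the highest of all 6 libraries. The log2 fold changes were 0.03 (SE 0.09, adjusted p = 0.89, edgeR quasi-likelihood) and -0.05 (SE 0.11, adjusted p = 0.87), with 95% intervals from -10.5% to 16.8% and from -17.8% to 13.8%. The mouse genome holds processed copies of Hmgb1, and how reads that fit several copies were assigned is not given in the sources used here, so its level is uncertain to that extent.

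The 2 Hmgb genes varied together, with Pearson r = 0.92 across the 6 libraries in log2 CPM (0.97 after subtracting group means), a description of points that share library scaling. On the log2 CPM scale, Cd4Cre replicate 2 minus replicate 3 was -0.34 for Hmgb1 and -0.48 for Hmgb2. After the GC and length correction described below it was -0.02 and -0.10. The part of promoter sequence in this joint variation was not tested. The promoters of Hmgb1 and Hmgb2 are shown because the 2 genes varied together. That of Sox4, which varied the opposite way (r = -0.67 with Hmgb1 and -0.80 with Hmgb2), is shown beside them because it holds as many matches to the motif below. Other members were more opposite, among them Tcf7 (r = -0.85 and -0.90) and Tox3 (-0.84 and -0.98). Each run covers the 250 bases before the outermost RefSeq start (GRCm38.p6), 5′ to 3′ on the gene's strand. Capitals mark the CCAAT box, a common promoter element, as CCAAT or, from the opposite strand, ATTGG. This motif was chosen after the values had been seen.

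Hmgb1 promoter (chr5:149053058-149053307, minus strand): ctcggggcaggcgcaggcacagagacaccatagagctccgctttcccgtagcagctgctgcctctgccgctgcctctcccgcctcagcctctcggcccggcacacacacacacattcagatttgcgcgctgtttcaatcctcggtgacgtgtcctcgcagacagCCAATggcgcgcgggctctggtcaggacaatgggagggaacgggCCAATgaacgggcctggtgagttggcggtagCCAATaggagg

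Hmgb2 promoter (chr8:57511593-57511842, plus strand): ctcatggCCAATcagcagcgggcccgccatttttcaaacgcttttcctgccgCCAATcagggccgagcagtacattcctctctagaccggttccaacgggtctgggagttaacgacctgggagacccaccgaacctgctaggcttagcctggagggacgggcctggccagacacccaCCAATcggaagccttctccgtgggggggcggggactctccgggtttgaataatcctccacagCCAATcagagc

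Sox4 promoter (chr13:28953700-28953949, minus strand): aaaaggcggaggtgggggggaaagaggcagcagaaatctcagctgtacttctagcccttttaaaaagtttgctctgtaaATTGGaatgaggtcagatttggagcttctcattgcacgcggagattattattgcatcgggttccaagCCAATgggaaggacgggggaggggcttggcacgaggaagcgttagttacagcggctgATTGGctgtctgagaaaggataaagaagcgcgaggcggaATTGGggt

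The Hmgb1 window holds 3 CCAAT boxes, 86, 42 and 11 bases before the start (counted to the first base of the match). The Hmgb2 window holds 4, at 243, 198, 73 and 11 bases, and the Sox4 window 4, at 171, 104, 47 and 8 bases. Of the 32851 windows, 33.9% held at least 1 such match, 2.79% at least 3 and 0.84% at least 4. The other Hmgb1 window, not shown, held none. Of the other members, Tox2 held matches in 3 of its 5 windows, and 1 of these held 4, as many as Hmgb2 and Sox4. Tox3, Tox4, Tcf7, Lef1 and Sox13 held none in any window.

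Much of the spread lay between Cd4Cre replicates 2 and 3. The coefficient of variation was larger in Cd4Cre than in controls for every gene except Tox2, for example 14.3% against 3.43% for Lef1, 8.87% against 1.96% for Tcf7 and 11.8% against 3.91% for Hmgb1. Replicate 2 minus replicate 3 was 0.55 for Tox, 0.42 for Lef1, 0.26 for Tcf7, -0.34 for Hmgb1 and -0.48 for Hmgb2 on the log2 CPM scale. Thus Tox, Lef1 and Tcf7 were higher, and the Hmgb genes lower, in replicate 2. After subtracting group means, Pearson r across the 6 libraries was 0.99 for Tox with Lef1, 0.98 for Tox with Tcf7 and -0.99 for Tox with Hmgb1. These are descriptions of 3 pairs in which the same libraries decide each value.

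Base composition moved with this difference between replicates. Across 13927 genes (genes are not independent replicates), Spearman's rho of replicate 2 minus replicate 3 was 0.40 with the GC content of the longest transcript and 0.20 with its length. Hmgb1 (40.1% GC) and Hmgb2 (38.7%) have lower GC than Tox (45.1%), Lef1 (46.1%) and Tcf7 (52.3%). With GC content and length regressed out, a step chosen after the data were seen, the difference was -0.02 for Hmgb1 and -0.10 for Hmgb2, and 0.65 for Tox, 0.49 for Lef1 and 0.23 for Tcf7. The Hmgb difference was thus small after the correction, while those of Tox, Lef1 and Tcf7 were within 0.1 of the uncorrected ones. Across the same 13927 genes, Spearman's rho of the uncorrected genotype log2 fold change was 0.23 with GC content and -0.14 with length. The genotype effect under the same correction was -0.43 for Lef1 (limma adjusted p = 0.018) and -2.98 for Tox. Erythroid markers also differed, with a sum of 2614 CPM in Cd4Cre replicate 2, the highest of the 6 libraries, and 703 CPM in Cd4Cre replicate 3. Controls differed too, from 572 CPM in control replicate 2 to 2244 CPM in control replicate 3. The part of erythroid cells in the difference between Cd4Cre replicates 2 and 3 was not tested.

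**Figure D4:**
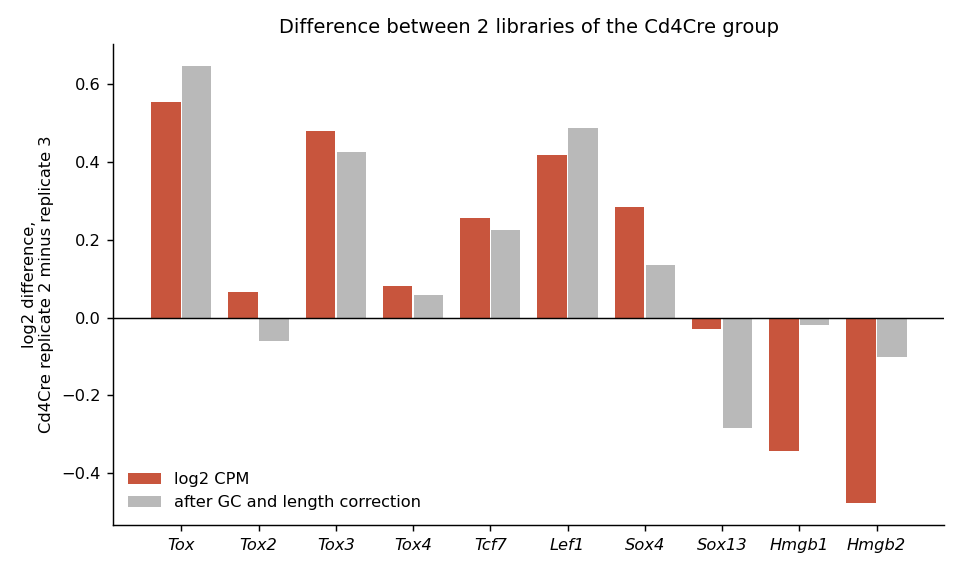
Log2 CPM difference, Cd4Cre replicate 2 minus Cd4Cre replicate 3, for the 10 genes, as deposited and TMM-scaled (red) and after the GC and length correction (grey). The bars of Tox, Tox3, Tcf7 and Lef1 stay above 0 in both versions, and those of Hmgb1 and Hmgb2 go from -0.34 and -0.48 to -0.02 and -0.10.

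Partners of Hmgb proteins gave no call. Of 11, including Supt16 of the FACT histone chaperone (249.8 ± 14.7 and 260.3 ± 13.3 CPM, n = 3) and the recombinase gene Rag1, none passed the edgeR test, DESeq2 or limma, and 0 had an unadjusted p under 0.05 (median log2 fold change 0.05). Of 11 tested genes for Hmgb1 receptors and their ligands, Cxcl12, a chemokine that forms a complex with Hmgb1, rose from 210 ± 2.13 to 276 ± 19.0 CPM (n = 3), and 10 did not pass. Cxcl12 is also made by cortical epithelium, whose markers are given above, and their part in this result was not tested. Tlr2, Tlr4 and Tlr9 were lower without overlap between the groups (-0.43, -0.47 and -0.61, edgeR adjusted p = 0.15, 0.18 and 0.16). Of the 11 genes, 5 had positive and 6 negative log2 fold changes, and 4 had an unadjusted p under 0.05. Over all 13934 tested genes, 4.11% passed and 2276 had an unadjusted p under 0.05. Of 18 proliferation genes none passed edgeR, DESeq2 or limma, and 1 had an unadjusted p under 0.05. Their sums were 5965 to 6801 CPM in controls and 5782 to 6664 CPM in Cd4Cre.

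Beyond the 10, the tables held 37 further genes whose proteins carry an HMG box, 25 of which had enough counts to test. None rose or fell in the edgeR quasi-likelihood test, in DESeq2 or in limma. An unadjusted p under 0.05 was found for 3 of these 25 and for 2276 of all 13934 tested genes. Their median log2 fold change was 0.02, with 13 positive and 12 negative values, from -0.29 for Sox12 to 0.49 for Sox6. The groups did not overlap for 4 of 25 (Sox12, Hmg20b, Hmgb3 and Pbrm1), against the 22.0% of all tested genes given above. Widest were the intervals of Sox genes that were barely detected, such as Sox5 (0.863 ± 0.119 and 1.22 ± 0.292 CPM, n = 3).

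The 3 genes with an unadjusted p under 0.05 were Hmg20b, Hmgb3 and Kmt2c. Hmg20b, a subunit of a histone demethylase complex, had 26.2 ± 1.42 CPM in controls and 32.3 ± 2.82 CPM in Cd4Cre (log2 fold change 0.30, edgeR adjusted p = 0.13). Hmgb3, the closest paralog of Hmgb1 and Hmgb2 in this list, had 80.2 ± 5.12 and 92.6 ± 2.95 CPM (0.21, edgeR adjusted p = 0.17). Kmt2c, a histone methyltransferase, had 398 ± 11.6 and 349 ± 37.7 CPM (-0.19, edgeR adjusted p = 0.29). Hmg20b passed without Cd4Cre replicate 3 (0.37, edgeR adjusted p = 0.027), Kmt2c and the related Kmt2d without Cd4Cre replicate 2 (-0.28 and -0.33, edgeR adjusted p = 0.031 and 0.021), and Hmgb3 with the GC and length correction (0.24, limma adjusted p = 0.044).

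Other members of the families gave no call. Tcf7l1 and Tcf7l2, the remaining Tcf/Lef genes, had few reads. Tcf7l1 was at 5.94 ± 0.523 CPM in Toxf/f and 5.01 ± 0.754 CPM in Cd4Cre, and Tcf7l2 at 4.81 ± 1.42 and 4.91 ± 1.07 CPM (n = 3). Ssrp1, the HMG-box subunit of FACT, had 292 ± 25.96 and 306.4 ± 9.72 CPM. The 12 genes with too few counts were Sox1, Sox2, Sox3, Sox8, Sox10, Sox11, Sox14, Sox15, Sox21, Sox30, Hmgb4 and Mael. Sox14, Hmgb4 and Mael had 0 counts in all 6 libraries, and Sox8 had most among the 12, with 46 estimated counts over the 6.

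**Figure D5:**
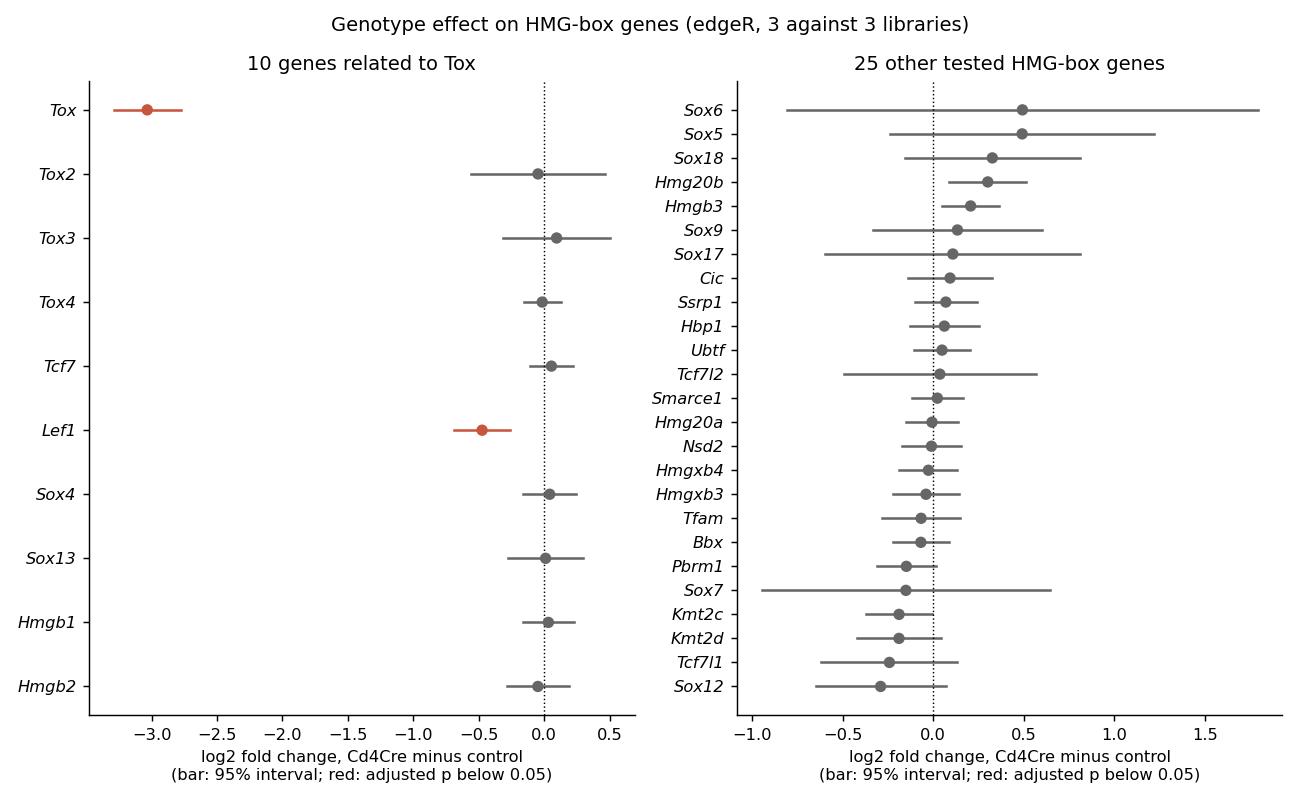
Log2 fold change (Cd4Cre minus control) with 95% interval from the edgeR fit, for the 10 genes at left and 25 other tested HMG-box genes at right (panels have separate horizontal scales, and red marks an adjusted p below 0.05). Only Tox at -3.03 and Lef1 at -0.47 are red, and the 25 others lie between -0.29 and 0.49.

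Genes that act with Tox in the choice between the CD4 and CD8 lineages were read from a list of 14 in the table. Of these, 2 fell, 0 rose and 12 did not pass (median log2 fold change 0.03), where 4.11% of all tested genes passed. Zbtb7b, which encodes the CD4 lineage factor ThPOK, fell by 1.62 on the log2 scale, from 43.0 ± 5.85 to 13.96 ± 0.582 CPM (n = 3). Itm2a, a membrane protein gene of thymocytes under selection, fell by 1.98, from 296.8 ± 6.22 to 74.99 ± 2.58 CPM. The markers of mature single-positive thymocytes given above were lower in sum in every Cd4Cre library, and their part in these calls was not tested. Tcf7 and Lef1 are known to act ahead of ThPOK in this lineage. DESeq2 called 5 of the 14, adding Id2, Id3 and Myb, for which edgeR gave adjusted p-values of 0.066, 0.053 and 0.064.

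For Tox and Lef1, the genes with the most similar pattern were sought by Pearson r of log2 CPM over the 6 libraries, among 10506 genes with a mean of at least 5 CPM. Among the nearest to Tox were Cd40lg (r = 0.998; 8.96 CPM in controls and 2.37 CPM in Cd4Cre), Add3, Ccr4 and Rcbtb1. Most opposite were H2-Q2, Cd163l1 (2.63 and 48.1 CPM), Pcsk1 (3.93 and 24.4 CPM), Fcna and Prss57. Nearest to Lef1 were Helz2 (r = 0.996; 151 and 118 CPM), Atp9a, Itgb2, Inf2 and Spsb1, and most opposite Tlcd1, Mri1, Dnajc15, Mif and Dguok. With 6 libraries that fall into 2 groups, such values describe a shared split and the order within it.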

How the data were processed

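RNA sequencing measured transcripts in 3 Toxf/f and 3 Toxf/fCd4Cre thymocyte libraries. Per the labels' protocols, Trizol was used for extraction and NEBNext Ultra for library preparation. For every gene, each library's deposited table holds an estimated count, not normalized, and an FPKM value that the authors scaled for length and library size, per the file headers. fastp 0.18.0, HISAT2 and StringTie 1.3.1 are named per the submitters' processing notes. Not given in the sources used here are the counting program, genome build, annotation and use of strand.

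Between 9.27% and 9.87% of a library's estimated counts were not whole, so counts were rounded before use in edgeR 4.0.16 (R 4.3.3). filterByExpr (minimum count 10, minimum total 15) left 13934 genes, libraries were scaled by TMM, and genotype was tested two-sided by quasi-likelihood F, with p-values adjusted after Benjamini and Hochberg over the 13934 genes. SE and 95% intervals follow from that F. CPM use TMM library sizes. Sums and ratios were tested with two-sided exact permutation tests over libraries. The median log2 fold change of all tested genes was 0.01, and 2276 had an unadjusted p under 0.05. At most 1.46% of tested genes had equal counts in a pair of libraries, so none was a copy.

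Alternatives were DESeq2 1.42.0 as the test and for size factors, limma 3.58.1, log2(FPKM + 0.1) or log2(FPKM + 1), other filters, age, a replicate block, the 3-week libraries alone and leaving out each library. A GC and length correction was added after the data were seen. The fitting procedure was tested on simulated data. Named were the 10 genes, members of the fixed lists past the threshold or with the smallest p, and the 5 genes most like and most opposite to Tox and Lef1, of which 1 is not reported here. Other list genes named, for example as undetected or for a call in an alternative, were chosen after their values were seen. The 10 genes and the lists were chosen with earlier results of these data known. Promoter sequences came from RefSeq (GRCm38.p6), where 9 of the 10 genes matched.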

Additional observations from a re-analysis of the deposited data

How the results depend on the processing

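Tox kept its direction and its call in all 19 alternatives (-3.18 to -2.72). Lef1 was lower in all 19 and past the threshold in 13; the 6 losses are given above. The 572 genes past the threshold became 332 in log2(FPKM + 0.1) without a filter, 151 in the 3-week libraries alone and 298 to 1269 with 1 library left out (309 without control replicate 1, 298 without control replicate 2, 330 without Cd4Cre replicate 1 and 1269 without Cd4Cre replicate 3). The 2 calls among the 10 genes became 1 in log2(FPKM + 0.1) without a filter and in the 3-week libraries alone, and 1 to 2 with 1 library left out. The 0 calls among other HMG-box genes became 1 with the GC and length correction and 0 to 2 with 1 library left out.

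The signs of changes that did not pass were not stable. With log2(FPKM + 0.1), log2(FPKM + 1) and log2(FPKM + 0.1) without a filter, Tox3 was at -0.089, -0.060 and -0.089 and Hmgb1 at -0.011 in each. In the 3-week libraries alone Sox13 was at -0.12 and Hmgb1 at -0.0031. With the GC and length correction Tox4 was at 0.040, Sox13 at -0.034 and Hmgb2 at 0.037. With 1 library left out, the ranges were -0.21 to 0.11 for Tox2, -0.034 to 0.21 for Tox3, -0.035 to 0.0070 for Tox4, -0.0056 to 0.12 for Tcf7, -0.064 to 0.097 for Sox4, -0.12 to 0.080 for Sox13, -0.052 to 0.12 for Hmgb1, -0.17 to 0.063 for Hmgb2 and -59.4 to 83.1 FPKM for the Tcf7 and Lef1 sum. The cause was not tested.

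Replicate numbers did not pair the libraries: deviations of same-numbered libraries correlated at 0.085, -0.11 and -0.043, and 2 of 6 libraries correlated best with their own number. With a replicate block, 440 genes passed, 122 higher and 318 lower, with 2 of the 10 genes (Tox -3.04, Lef1 -0.48, edgeR adjusted p = 0.027) and 0 other HMG-box genes. With 3 libraries a group and 33 to 50 estimated counts of Tox2, changes of the sizes inside the intervals above were not detectable.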

Other observations

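Age differed between replicates within each group, so the genotype effect can be read at 4 weeks (1 library against 1) and at 3 weeks (2 against 2). Lef1 was lower at both ages, by log2 changes of -0.51 and -0.47, and Tox by -3.11 and -3.01. Tox2 was at 0.46 at 4 weeks and -0.28 at 3 weeks, and Sox13 at 0.24 and -0.12. The difference between the ages did not pass for any of the 13934 genes in the edgeR quasi-likelihood test, where 122 genes and none of the 10 HMG-box genes had an unadjusted p under 0.05. No other tool was run on this difference, and it rests on 1 library a group at 4 weeks.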
